A study of Mus musculus with 9 samples.

Results

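Genes of the major histocompatibility complex (MHC) class II pathway were followed across the livers of mice fed a high fat diet with or without a ligand of estrogen receptor beta. The group was set by name, with earlier results of these data known, and held 9 genes. These were the chain genes H2-Aa, H2-Ab1 and H2-Eb1 and the peptide editor genes H2-DMa, H2-DMb1 and H2-DMb2. The others were the invariant chain Cd74, the coactivator Ciita and the protease Ctss. All 9 were found among the 45513 genes of the count table, and 7 had enough reads to be tested. C57BL/6 mice, 3 per group, gave liver RNA after 9 weeks in 3 groups: a high fat diet with B-LGND2, a high fat diet with vehicle, and a normal diet with vehicle. All groups share the strain and the tissue, and B-LGND2 is known here only by its code name, and the title of the series names it as such a ligand. The sources used here do not give the dose, the vehicle, the composition of the diets, or the age and sex of the mice. The 3 groups are called B-LGND2, high fat vehicle and normal diet livers below.

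Class II molecules show peptides from engulfed material to CD4 T cells. An alpha and a beta chain assemble on the invariant chain, Cd74, which fills the peptide groove and takes the complex to endosomes, where cathepsin S (Ctss) trims it down to a short remnant and the DM heterodimer swaps that remnant for a peptide. Ciita is the coactivator that switches the set on, through a complex of RFX and NF-Y proteins bound to the X and Y boxes of their promoters. Dendritic cells, B cells and macrophages carry the pathway, in liver also Kupffer cells, and hepatocytes at rest carry little of it. C57BL/6 mice lack a working alpha chain of the I-E molecule, so that H2-Eb1 is transcribed without a partner chain. H2-Ea-ps, the alpha chain pseudogene, had 0 counts in all 9 libraries.

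The 6 H2 genes lie close together on chromosome 17 (GENCODE M21 on GRCm38, protein coding): H2-DMa at chr17:34119541-34139101, H2-DMb2 at chr17:34143307-34151555, H2-DMb1 at chr17:34153072-34160230, H2-Ab1 at chr17:34257689-34269419, H2-Aa at chr17:34282744-34287823 on the reverse strand and H2-Eb1 at chr17:34305867-34316674. Ciita lies at chr16:10480059-10528418 and Ctss at chr3:95526786-95556403. Counts cover the exons of a gene as a whole. The exons of H2-DMa overlap 360 bases of Brd2 on the opposite strand and those of Ciita overlap 329 bases of Dexi. How strand was handled in counting is unknown here, so reads in those stretches cannot be assigned with certainty. H2-DMb1 and H2-DMb2 are near copies: 27.2% of the 50-base words of H2-DMb1 also occur in another gene, against at most 0.63% for the other members apart from H2-DMb2 (30.9%).

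The promoters are printed because the X and Y boxes are what ties these genes to Ciita. RefSeq's promoter table (GRCm38.p6) held 6 of the 9 genes by symbol, in windows of 250 bases before to 50 after the RefSeq start. The X box core was searched as AGNAAC and the Y box as ATTGG, each on both strands, and together as AGNAAC followed 15 to 30 bases on by ATTGG on the same strand. H2-Eb1 and H2-DMb1 held the full arrangement, on the gene strand, as did 0.463% of all 32851 promoters in the table on that strand and 0.874% on either strand. AGNAAC alone was in 48.1% and ATTGG alone in 37.4% of them. With 1 letter allowed to differ in the X box core on the gene strand, a setting chosen after the promoters were seen, H2-Aa and H2-DMb2 joined them, and so did 5.61% of all promoters. H2-DMa, with 2 windows, and Ctss did not hold the arrangement, and 1 window of H2-DMa held AGNAAC and ATTGG once each without that spacing. The interferon gamma element TTCNNNGAA was in H2-DMb2 alone of the 6, and in 8.3% of all promoters. The 150 bases before the RefSeq start of those 4 genes follow, 5′ to 3′ on the gene's strand, with the X box core and the Y box in capitals. They come from chr17:34305717-34305866 (H2-Eb1), chr17:34153041-34153190 (H2-DMb1), chr17:34287824-34287973 (H2-Aa, reverse strand) and chr17:34145099-34145248 (H2-DMb2). GENCODE M21 gives both DM beta genes an earlier first base than RefSeq does.
H2-Eb1: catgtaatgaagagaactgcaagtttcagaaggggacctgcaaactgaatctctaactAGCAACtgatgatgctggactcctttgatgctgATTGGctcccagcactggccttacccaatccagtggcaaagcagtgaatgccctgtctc
H2-DMb1: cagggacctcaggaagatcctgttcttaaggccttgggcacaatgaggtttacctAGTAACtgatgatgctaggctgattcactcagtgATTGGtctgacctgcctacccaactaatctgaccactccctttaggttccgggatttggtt
H2-Aa: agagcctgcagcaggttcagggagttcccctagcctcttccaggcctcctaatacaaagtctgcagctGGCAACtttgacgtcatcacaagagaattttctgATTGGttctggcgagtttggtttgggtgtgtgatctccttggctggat
H2-DMb2: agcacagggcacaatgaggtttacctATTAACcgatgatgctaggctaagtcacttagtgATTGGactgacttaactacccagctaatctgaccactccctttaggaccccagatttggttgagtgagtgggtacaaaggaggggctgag
The X box core starts 92 bases before the start in H2-Eb1, 95 in H2-DMb1, 82 in H2-Aa and 124 in H2-DMb2, with 27 bases between the boxes in H2-Eb1 and 28 in the other 3. Counted from 1 at the first letter of AGNAAC, the core of H2-Aa differs by A1G and that of H2-DMb2 by G2T. 

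Library totals ran from 5778978 to 10322972 counts, both of these extremes among the B-LGND2 livers, and no libraries agreed within sampling noise (smallest chi-square per degree of freedom of any pair, 11.8). Gene models of ribosomal RNA (rRNA) took 4.31 to 6.19% of counts in B-LGND2 livers, 0.901 to 1.44% in high fat vehicle livers and 3.16 to 3.74% in normal diet livers, so that no groups overlapped. Normal diet replicate 1 had 12.7% of counts in mitochondrial genes, against 3.69 to 6.12% in the other 8 libraries. The labels number the mice without saying that a number links them across groups; each p-value rests on the spread of these 9 samples alone. Levels are given in counts per 1e+06 counts (CPM) on library sizes scaled by the trimmed mean of M-values (TMM), or per length as counts per base of exon scaled to the same total (TPM) where genes are set side by side.

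Cd74 was the most abundant of the 9 genes per length in 9 of 9 libraries, at 76.0 ± 44.7 TPM in B-LGND2 livers, 36.1 ± 8.16 in high fat vehicle livers and 38.3 ± 16.3 in normal diet livers (mean ± SD, n = 3 each). H2-Ab1 came next in each group, with means of 27.4 TPM in B-LGND2, 15.1 TPM in high fat vehicle and 18.1 TPM in normal diet livers. In B-LGND2 livers H2-Eb1 (21.5 TPM), Ctss (20.9 TPM) and H2-Aa (15.3 TPM) followed, in high fat vehicle livers Ctss (15.01 TPM), H2-Eb1 (10.6 TPM) and H2-Aa (8.14 TPM), and in normal diet livers H2-Aa (13.5 TPM), Ctss (12.4 TPM) and H2-Eb1 (12.3 TPM). Neighbours in that order from H2-Ab1 on down to the last of the chains had overlapping ranges in every group. H2-DMb1 averaged 5.06 TPM in B-LGND2, 1.46 TPM in high fat vehicle and 1.39 TPM in normal diet livers, and H2-DMa 3.02 TPM in B-LGND2, 2.46 TPM in high fat vehicle and 1.32 TPM in normal diet livers. Both DM genes lay below the chains in each of the 9 libraries, though the ranges of H2-DMb1 and H2-Aa overlapped across B-LGND2 livers. Ciita and H2-DMb2 had means of at most 0.279 TPM in all groups, from few counts. The place of H2-Ab1 depends on the length used: over its longest transcript its means were 50.4 TPM in B-LGND2, 27.8 TPM in high fat vehicle and 33.8 TPM in normal diet livers.

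On the high fat diet, 2 class II genes were called higher in B-LGND2 livers than in high fat vehicle livers. H2-Eb1 and H2-DMb1 rose, by 2.47-fold and 4.15-fold in mean CPM, and passed the test of edgeR's quasi-likelihood model with Benjamini-Hochberg adjustment over all 12102 genes tested. Cd74, H2-Ab1, H2-Aa, Ctss and H2-DMa had means 1.53 to 2.61 times as high with B-LGND2 and did not pass. Thus 2 of the 7 tested members were called, both higher, where the same test called 3.07% of all genes tested as higher and 5.63% in either direction. One of the 2, H2-DMb1, entered the test largely through the B-LGND2 group, where it was high, so the count is given as a description. The median log2 fold change of the 7 was 1.18, against a median of 0.00 over all genes tested. The count rests on few libraries: it was 0 without high fat vehicle replicate 2 or 3, B-LGND2 replicate 1 or 3, or normal diet replicate 2, 1 without high fat vehicle replicate 1, and 4 without B-LGND2 replicate 2. The rRNA share differed between these groups too, and with it as a covariate 0 members and 2 genes in all were called, with larger fold changes and SEs for H2-Eb1 (log2 fold change 2.75, SE 1.17) and H2-DMb1 (5.32, SE 1.41).

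H2-Eb1, the I-E beta chain, had 25.7, 16.3 and 32.0 CPM in B-LGND2 livers, 15.5, 4.81 and 9.62 CPM in high fat vehicle livers and 17.3, 10.4 and 18.8 CPM in normal diet livers. All 3 B-LGND2 values lay above all 3 high fat vehicle values, though the lowest of the first (16.3) and the highest of the second (15.5) nearly met. Its log2 fold change was 1.31 (SE 0.37, adjusted p = 0.0485, higher in 3 of 3 livers). Leaving out a single library gave log2 fold changes of 0.98 to 1.77 and adjusted p of 0.0331 to 0.199, the lowest change and the highest p both without high fat vehicle replicate 2, which held 32 of the 195 counts of its group.

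H2-Aa, the I-A alpha chain, had 26.3, 15.4 and 59.1 CPM in B-LGND2 livers, 18.96, 11.1 and 14.2 CPM in high fat vehicle livers and 51.6, 15.2 and 33.3 CPM in normal diet livers. H2-Ab1, its beta chain partner, had 35.3, 20.2 and 67.6 CPM with B-LGND2, 24.2, 13.7 and 17.7 CPM in high fat vehicle livers and 37.7, 16.7 and 36.5 CPM in normal diet livers. In both genes 2 of 3 B-LGND2 livers lay above every high fat vehicle liver and B-LGND2 replicate 2 lay among them. The log2 fold changes were 1.18 for H2-Aa (SE 0.48, adjusted p = 0.150) and 1.14 for H2-Ab1 (SE 0.40, adjusted p = 0.0990). Without B-LGND2 replicate 3 they were 0.51 and 0.59.

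Cd74, the invariant chain (protein coding, chr18:60803848-60812652), had 80.5, 32.2 and 114 CPM in B-LGND2 livers, 32.8, 20.002 and 34.1 CPM in high fat vehicle livers and 61.4, 26.6 and 34.9 CPM in normal diet livers. As with the I-A chains, replicates 1 and 3 of B-LGND2 stood above the high fat vehicle livers and replicate 2 (32.2) fell within their range. Its log2 fold change was 1.38 (SE 0.41) and missed the threshold, with an adjusted p of 0.0622. It was called by DESeq2, as was H2-Ab1, along with H2-Eb1 and H2-DMb1 (4 members in all), and limma-voom called H2-Eb1 alone.

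H2-DMb1, the beta chain of the peptide editor, had few reads: 27, 16 and 55 counts in B-LGND2 livers, 10, 6 and 7 counts in high fat vehicle livers and 5, 9 and 16 counts in normal diet livers. On the CPM scale these were 3.13, 2.35 and 9.16 with B-LGND2, 1.65, 0.902 and 0.976 in high fat vehicle livers and 0.780, 1.49 and 2.21 in normal diet livers. No B-LGND2 value reached down to the high fat vehicle values, and replicate 3 was several times as high as the other 2 of its group. The gene was tested because all 3 B-LGND2 livers met the count minimum, as did 1 liver in each of the other groups, which is how it entered the test. Its log2 fold change was 2.03 (SE 0.58, adjusted p = 0.0489). Without B-LGND2 replicate 3 the change was 1.23 (adjusted p = 0.189).

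H2-DMa, the alpha chain of the editor, had 6.37, 4.56 and 7.49 CPM in B-LGND2 livers, 3.96, 3.76 and 4.32 CPM in high fat vehicle livers and 2.81, 2.15 and 3.87 CPM in normal diet livers. The B-LGND2 values lay above all high fat vehicle values, by a small margin at replicate 2. The log2 fold change of 0.61 (SE 0.35) did not pass, with an adjusted p of 0.296. H2-DMb2 was at or below 2 counts in each library (0, 0 and 2 counts with B-LGND2, 1, 1 and 1 in high fat vehicle livers, 2, 0 and 1 in normal diet livers). No difference in H2-DMb2 was detectable at this depth, where 3 counts stand for 0.348 to 0.500 CPM (counting error only).

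Ctss, the protease that trims the invariant chain, had 11.7, 14.1 and 23.3 CPM in B-LGND2 livers, 10.4, 7.97 and 10.7 CPM in high fat vehicle livers and 13.1, 8.27 and 10.8 CPM in normal diet livers. Its B-LGND2 values also lay above all high fat vehicle values, with a log2 fold change of 0.75 (SE 0.30, adjusted p = 0.141). Groups without overlap were thus found for H2-Eb1, H2-DMa, H2-DMb1 and Ctss, where 16.4% of all genes tested had B-LGND2 livers above high fat vehicle livers without overlap.

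Ciita had 4, 8 and 17 counts in B-LGND2 livers, 6, 6 and 5 counts in high fat vehicle livers and 4, 3 and 1 counts in normal diet livers, too few for the model. In CPM these were 0.463, 1.18 and 2.83 with B-LGND2, 0.989, 0.902 and 0.697 in high fat vehicle livers and 0.624, 0.496 and 0.138 in normal diet livers. The B-LGND2 livers spanned the high fat vehicle livers, and a two-sided exact permutation test of the mean CPM gave p = 0.6 between them. The high fat vehicle livers lay above the normal diet livers without overlap, as 15.4% of all genes tested did, and the exact permutation test gave p = 0.1, the smallest that 3 against 3 can give.

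**Figure D1:**
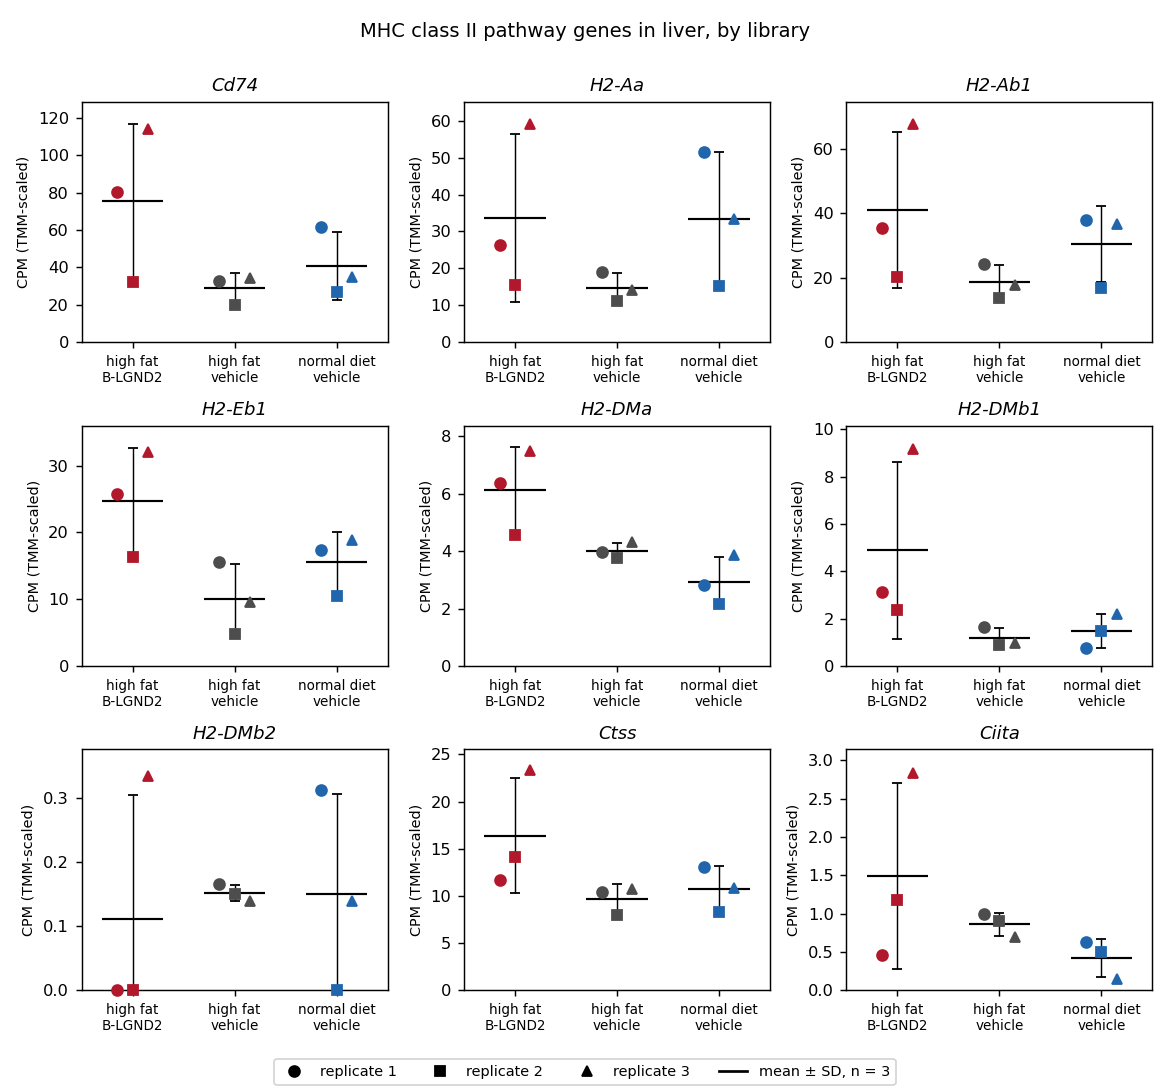
Level of each of the 9 genes in each library, in CPM on TMM-scaled library sizes, with a panel and a linear axis of its own for each gene. Points are libraries, their shapes the replicate numbers, and lines the mean ± SD of 3 (error bars end at 0 where they would pass it). B-LGND2 replicate 3 was the highest of all libraries for each gene, at 114 CPM for Cd74 and 59.1 CPM for H2-Aa.

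The plot of levels by library shows how the libraries of each group ranked. B-LGND2 replicate 3 had the highest CPM of all 9 libraries for 9 of 9 members, H2-DMb2 included, where this rests on 2 counts. In that group replicate 2 was the lowest for 6 members. In the high fat vehicle group replicate 2 was the lowest for 7 members and replicate 1 the highest for 6, and the normal diet group had the same counts for its own replicates 2 and 1. Within the B-LGND2 group the highest library exceeded the lowest 6.11-fold for Ciita, from few counts, 3.89-fold for H2-DMb1, 3.83-fold for H2-Aa, 3.54-fold for Cd74 and 3.35-fold for H2-Ab1. The spread was smaller for Ctss (1.99-fold), H2-Eb1 (1.96-fold) and H2-DMa (1.64-fold).

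Between the vehicle groups, 0 of the 7 tested members were called by edgeR's quasi-likelihood test, by DESeq2 or by limma-voom, and 1 had an unadjusted p under 0.05. The test called 2.99% of all genes tested. The high fat vehicle means were below the normal diet means for 6 of the 7, with a median log2 fold change of -0.50 against 0.01 over all genes tested. H2-Aa had the largest difference, at 0.442 times the normal diet mean (log2 fold change -1.18, SE 0.48, unadjusted p = 0.0270, adjusted p = 0.164). Its normal diet libraries were far apart, and replicate 2 (15.2 CPM) lay within the high fat vehicle range. For H2-Ab1 the log2 fold change was -0.71 (SE 0.40), for H2-Eb1 -0.64 (SE 0.37) and for Cd74 -0.50 (SE 0.40), with adjusted p of 0.309 to 0.494. H2-DMb1, Ctss and H2-DMa had values of -0.37, -0.15 and 0.44, and those of Ctss, H2-DMa and H2-DMb1 changed sign under other settings. This comparison and that of B-LGND2 with high fat vehicle share the high fat vehicle libraries, so a low value there moves both.

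B-LGND2 livers on the high fat diet were last set against normal diet livers. Of the 7 members 0 were called by edgeR's quasi-likelihood test, by DESeq2 or by limma-voom, 3 had an unadjusted p under 0.05, and the test called 2.93% of all genes tested. The members differed in where they stood. H2-Aa averaged 33.6 ± 22.7 CPM in B-LGND2 livers and 33.4 ± 18.2 CPM in normal diet livers, a log2 fold change of 0.00 (SE 0.46). H2-Ab1 (0.43, SE 0.39), H2-Eb1 (0.66, SE 0.36) and Ctss (0.60, SE 0.30) had values between, with adjusted p of 0.280 to 0.584. Cd74 had a log2 fold change of 0.88 (SE 0.40, adjusted p = 0.244). The DM genes had the largest values, 1.05 for H2-DMa (SE 0.36, adjusted p = 0.123) and 1.66 for H2-DMb1 (SE 0.56, adjusted p = 0.117). For these 2 genes the B-LGND2 livers lay above all normal diet livers, as they did for 10.5% of all genes tested.

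**Figure D2:**
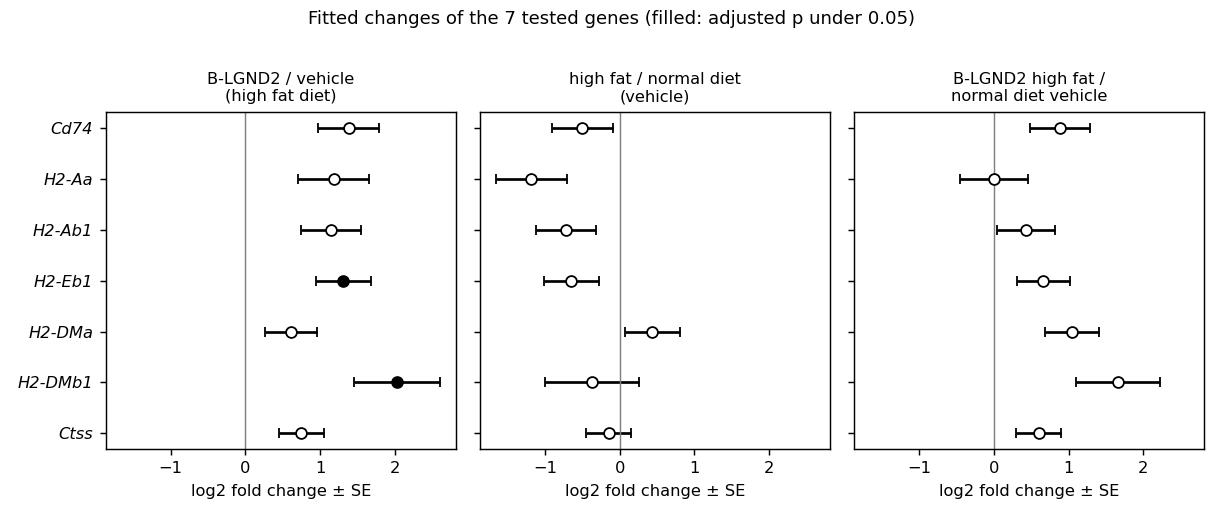
Log2 fold changes with their SE for the 7 tested genes, on 1 axis for each of 3 comparisons from 1 edgeR fit of all 9 libraries, filled where the adjusted p is under 0.05. Only H2-Eb1 (1.31) and H2-DMb1 (2.03) are filled, both for B-LGND2 against vehicle, where all 7 values lie to the right of 0.

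The plot of fold changes places the chains and the editor differently against normal diet. This was looked at within libraries, where scaling drops out, as a description with no test. H2-DM genes summed per length came to 0.126 of the summed chains (H2-Aa, H2-Ab1 and H2-Eb1) in B-LGND2 livers (range 0.109 to 0.134), 0.127 in high fat vehicle livers (0.0992 to 0.160) and 0.0704 in normal diet livers (0.0392 to 0.0951). Both high fat groups lay above the normal diet group on this ratio. H2-Aa came to 0.538 ± 0.0471 of H2-Ab1 per length in B-LGND2 livers, 0.541 ± 0.0106 in high fat vehicle livers and 0.719 ± 0.178 in normal diet livers (SD, n = 3 each). The normal diet ratios of 0.925, 0.616 and 0.617 all lay above the 6 high fat ones, which ran from 0.503 to 0.591, and the highest was in the library with the large mitochondrial share. Cd74 relative to the summed chains overlapped between all groups, at 1.17 ± 0.235 with B-LGND2, 1.10 ± 0.217 in high fat vehicle livers and 0.873 ± 0.206 in normal diet livers.

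**Figure D3:**
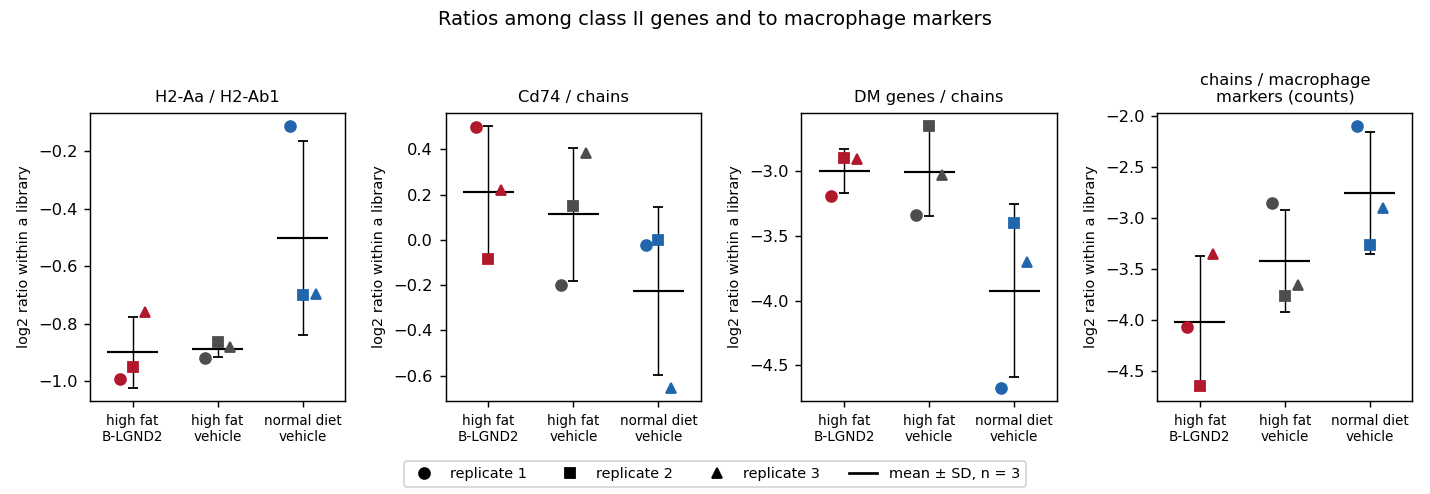
Log2 ratios within each library for H2-Aa to H2-Ab1, Cd74 to the summed chains and the DM genes to the summed chains (all per length), and the summed chains to 17 macrophage marker genes (counts), with a linear axis for each and lines at the mean ± SD of 3. Normal diet livers stand above both high fat groups for H2-Aa to H2-Ab1 and below them for the DM genes to the chains.

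Marker genes of cells that carry class II differed between the groups as well, and in bulk tissue fewer cells of a type and less RNA per cell cannot be told apart. A list of 17 macrophage and Kupffer cell markers summed to 1466, 1300 and 1623 CPM in B-LGND2 livers, 424, 403 and 524 CPM in high fat vehicle livers and 456, 408 and 664 CPM in normal diet livers. B-LGND2 livers lay far above both other groups. Against high fat vehicle edgeR called 11 of the 16 markers tested higher (median log2 fold change 1.49), where 3.07% of all genes tested were. That count was 5 without high fat vehicle replicate 1 and 6 without replicate 2. Led by p, the called markers were Cd5l, a secreted protein of tissue macrophages (log2 fold change 2.17, SE 0.25), and the complement genes C1qa (2.19, SE 0.27), C1qb (1.89, SE 0.26) and C1qc (1.72, SE 0.25). These 4 stayed called with any library left out. With rRNA share as a covariate none of the 4 was called against high fat vehicle (adjusted p of 0.307 to 0.831), and 2 genes in all were. The rRNA share did not overlap between the groups, so this run cannot tell it apart from treatment. With the same covariate Cd5l and C1qc stayed called against normal diet (adjusted p = 0.0326 for both), and C1qa did not (adjusted p = 0.350). Against normal diet 11 of 16 were called higher too, where 1.59% of all genes tested were (median log2 fold change 1.40). Of the 16, Marco had 54 to 228 counts with B-LGND2, 4 to 12 in high fat vehicle livers and 5 to 8 in normal diet livers. Cx3cr1 had 9 to 16, 2 to 8 and 0 to 11 counts in the same order. Both entered the test at least in part through the B-LGND2 group, where they were high, so these counts of markers called are given as a description. Among defining markers, Adgre1 (F4/80) had 60, 66 and 106 counts with B-LGND2, 22, 26 and 27 in high fat vehicle livers and 28, 21 and 22 in normal diet livers. Its call against high fat vehicle was lost without replicate 2 of that group (adjusted p = 0.0984) and held in 5 of the 9 runs with a library left out. Csf1r, the receptor that macrophages need to survive, averaged 64.8 ± 14.9 CPM in B-LGND2, 24.2 ± 4.85 CPM in high fat vehicle and 17.2 ± 4.25 CPM in normal diet livers, and missed the threshold against high fat vehicle without replicate 1 of that group (adjusted p = 0.0535). Cd68, a lysosomal glycoprotein, averaged 6.79 ± 1.36 CPM in B-LGND2, 3.13 ± 0.676 CPM in high fat vehicle and 3.54 ± 0.800 CPM in normal diet livers and was not called. The 10 leukocyte common genes summed to 204 ± 15.2 CPM in B-LGND2 livers, 115 ± 13.7 in high fat vehicle livers and 132 ± 10.9 in normal diet livers. Next to shares of all genes tested of 3.07% and 1.59%, 5 of 10 were called higher against high fat vehicle and 3 against normal diet. Among them were the signalling adaptor Fcer1g (log2 fold change against high fat vehicle 2.09, SE 0.28) and the leukocyte GTPase Rac2 (1.85, SE 0.30).

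The chains spread more within groups than the macrophage sum did. They summed to 87.4, 51.9 and 159 CPM in B-LGND2 livers, 58.7, 29.6 and 41.5 CPM in high fat vehicle livers and 107, 42.3 and 88.7 CPM in normal diet livers. The macrophage sum differed 1.25-fold within the B-LGND2 group and the chain sum 3.06-fold, and both were lowest in replicate 2 and highest in replicate 3 of that group. Per macrophage marker count, chain counts came to 0.0658 in B-LGND2 livers (range 0.0399 to 0.0978), 0.0971 in high fat vehicle livers (0.0735 to 0.138) and 0.157 in normal diet livers (0.104 to 0.234). This ratio was lower in B-LGND2 livers than in normal diet livers without overlap and overlapped between B-LGND2 and high fat vehicle livers. The part of the macrophage markers in the class II values was not tested.

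Defining surface markers of the other class II bearing cells had few counts. Over all 9 libraries the B cell genes Cd79a and Ms4a1 had 3 and 15 counts and the dendritic cell genes Flt3 and Itgax 7 and 27 counts, while the immunoglobulin genes Igkc and Ighm had 750 and 515 counts. The 12 B cell and plasma cell markers summed to 31.7 ± 5.98 CPM with B-LGND2, 20.2 ± 1.53 CPM in high fat vehicle livers and 27.2 ± 2.88 CPM in normal diet livers, with B-LGND2 and high fat vehicle livers apart. The 12 dendritic cell markers summed to 16.4 ± 2.14 CPM in B-LGND2, 13.2 ± 2.98 CPM in high fat vehicle and 12.6 ± 1.77 CPM in normal diet livers, with ranges that overlapped between all groups. Of 3 markers tested in each list 0 were called against high fat vehicle by edgeR, DESeq2 or limma-voom, and 1 in each had an unadjusted p under 0.05. Zbtb46, a dendritic cell factor that endothelium also carries, had 418 counts. Against normal diet Wdfy4, a gene dendritic cells need for cross-presentation, was called higher with B-LGND2 (log2 fold change 2.37, SE 0.58, adjusted p = 0.0365). It had 35, 17 and 28 counts in B-LGND2 livers and 7, 2 and 5 in normal diet livers, and no normal diet liver met the count minimum. Wdfy4 thus entered the test largely through the B-LGND2 group, where it was high. Its call was lost without normal diet replicate 2 (adjusted p = 0.142) and held in 4 of the 9 runs with a library left out. Of the 3 dendritic cell markers tested, 2 had positive log2 fold changes against normal diet. Clec9a was the exception, at 0.779 ± 0.498 CPM in B-LGND2 and 1.64 ± 0.307 CPM in normal diet livers. In high fat vehicle livers it averaged 1.88 ± 0.529 CPM. With 3 to 9 counts in B-LGND2 livers, Clec9a entered the test largely through the vehicle groups, where it was high. Against high fat vehicle 1 of the 3 markers had a positive log2 fold change (median -0.07). The T cell gene Cd3e had 31 counts in all and Cd4, which Kupffer cells can also carry, 201. Of the 2 T and NK cell markers tested, 0 were called in any comparison by edgeR, DESeq2 or limma-voom. An unadjusted p under 0.05 was found for 1 with B-LGND2 against high fat vehicle, 2 with B-LGND2 against normal diet and 1 between the vehicle groups. The 2 were Cd4 and Lck. Lck had 11 to 17 counts in B-LGND2 livers, 3 to 5 in high fat vehicle livers and 1 to 9 in normal diet livers. It entered the test largely through the B-LGND2 group, where it was high, so these counts are given as a description.

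Of liver endothelial markers, whose cells also present antigen, 2 of 11 were called higher with B-LGND2 against high fat vehicle and 4 against normal diet, next to shares of all genes tested of 3.07% against high fat vehicle and 1.59% against normal diet, and their sum was 459 ± 79.3 CPM in B-LGND2, 299 ± 33.8 CPM in high fat vehicle and 311 ± 46.9 CPM in normal diet livers. The first 2 were Gpr182, a sinusoidal receptor (log2 fold change 1.38, SE 0.27, adjusted p = 0.0124), and Kdr, the VEGF receptor (0.91, SE 0.25, adjusted p = 0.0417). Both lost their call without high fat vehicle replicate 2 (adjusted p = 0.0759 and 0.207). Over the 9 runs with a library left out, the call held in 6 for Gpr182 and 3 for Kdr. Against high fat vehicle 1 of 4 cholangiocyte markers (Spp1, log2 fold change 0.95, SE 0.22) and 1 of 8 hepatocyte markers (Apoa1, 1.40, SE 0.34) were called higher. Without high fat vehicle replicate 2 the adjusted p was 0.114 for Spp1 and 0.108 for Apoa1, and with rRNA share as a covariate the Apoa1 value was -0.33. The call held in 4 of the 9 runs with a library left out for Spp1 and in 5 for Apoa1.

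**Figure D4:**
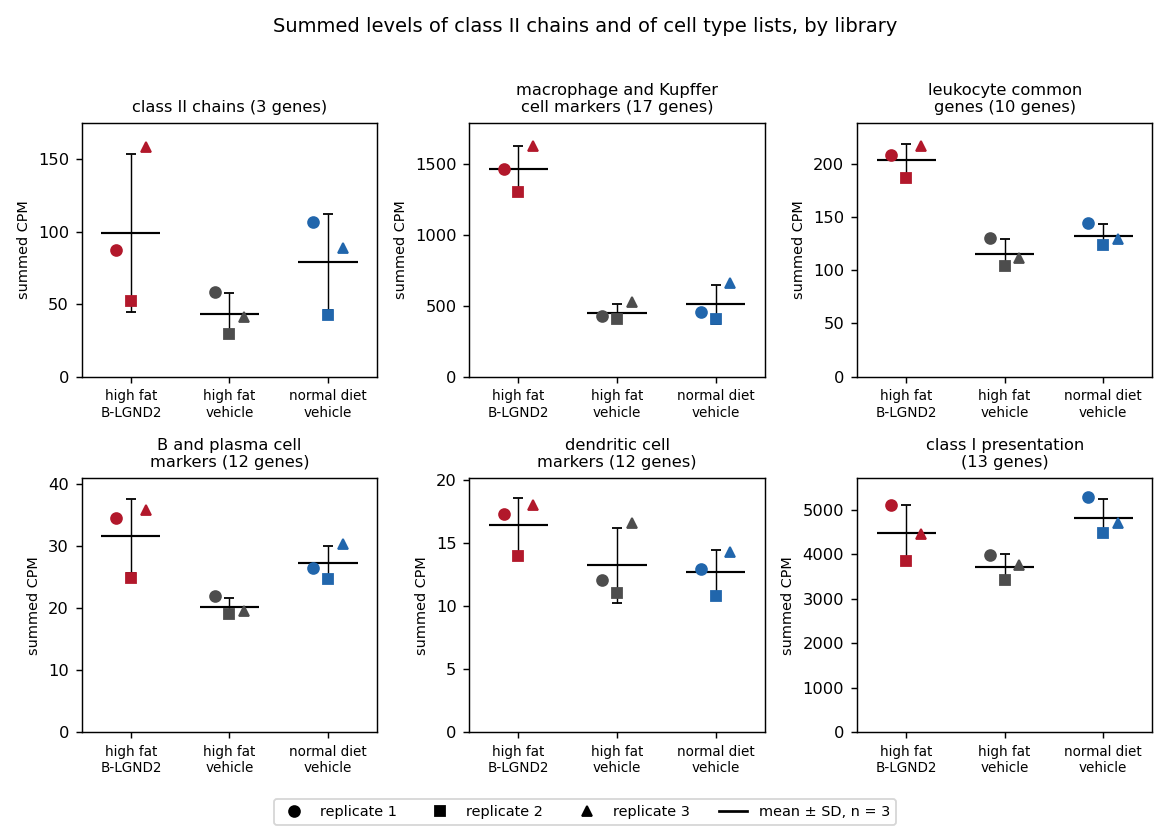
Summed CPM of the 3 class II chains, of 4 cell type lists and of 13 class I presentation genes in each library, on linear axes from 0, with lines at the mean ± SD of 3. The macrophage sum is between 1300 and 1623 CPM in B-LGND2 livers and at most 664 CPM elsewhere, while the chain sum overlaps between all groups.

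The plot of summed levels also places class II beside class I, whose molecules show peptides from within the cell. None of 13 class I presentation genes was called against high fat vehicle by edgeR's quasi-likelihood test or limma-voom, while DESeq2 called 1 and 4 had an unadjusted p under 0.05. By edgeR 5.63% of all genes tested were called in either direction, so 0 of 13 is near that share. The median log2 fold change of the 13 was 0.36, against -0.003 over all genes tested. The 13 summed to 4475 ± 634 CPM in B-LGND2 livers, 3722 ± 289 CPM in high fat vehicle livers and 4820 ± 426 CPM in normal diet livers.

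Accessory genes of the pathway numbered 14, of which 9 were tested and 1 was called higher against high fat vehicle, where 3.07% of all genes tested were (median log2 fold change 0.52). That was Ifi30, the lysosomal thiol reductase GILT that unfolds antigens for class II loading, with 20.4, 21.3 and 22.98 CPM in B-LGND2 livers, 9.73, 7.37 and 12.1 CPM in high fat vehicle livers and 16.2, 11.7 and 20.7 CPM in normal diet livers. Its B-LGND2 livers were close together and above all high fat vehicle livers, and the highest normal diet liver lay among them. Its log2 fold change against high fat vehicle was 1.14 (SE 0.27, adjusted p = 0.0257), and leaving out high fat vehicle replicate 2 gave 0.98 (adjusted p = 0.148). The call held in 4 of the 9 runs with a library left out. H2-Oa and H2-Ob, the chains of the DO molecule that restrains DM in B cells, had 18 and 54 counts in all 9 libraries, and H2-Eb2 had 1.

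Regulators of class II and genes of interferon gamma signalling numbered 19, of which 16 were tested. Against high fat vehicle 2 were called higher and 1 lower with B-LGND2, where 5.63% of all genes tested were called in either direction (median log2 fold change 0.16). Spi1, the transcription factor PU.1 of macrophages and B cells, had 10.1, 5.74 and 8.33 CPM in B-LGND2 livers, 1.48, 2.11 and 2.93 CPM in high fat vehicle livers and 2.65, 2.48 and 2.21 CPM in normal diet livers. Its log2 fold changes with B-LGND2 were 1.87 against high fat vehicle (SE 0.37, adjusted p = 0.0131) and 1.72 against normal diet (SE 0.37, adjusted p = 0.0219). Rfxap, a subunit of the RFX complex on the X box, averaged 36.6 ± 5.97 CPM in B-LGND2 livers, 19.5 ± 1.61 CPM in high fat vehicle livers and 25.5 ± 4.32 CPM in normal diet livers. It rose by 0.91 on the log2 scale against high fat vehicle (SE 0.23, adjusted p = 0.0335), and with rRNA share as a covariate the value was -0.13. Of the NF-Y subunits, which bind the Y box, Nfya was not called in any comparison by edgeR (9.14 ± 4.62 CPM in B-LGND2, 10.9 ± 1.61 CPM in high fat vehicle and 5.95 ± 2.30 CPM in normal diet livers). Nfyc was called lower with B-LGND2 against high fat vehicle only (a change of -1.95 on the log2 scale, SE 0.55, adjusted p = 0.0489). It had 3, 9 and 7 counts with B-LGND2 and 21, 30 and 20 in high fat vehicle livers. No B-LGND2 liver met the count minimum, so Nfyc entered the test largely through the high fat vehicle group, where it was high. Nfyb, from 13.8 ± 3.54 CPM in B-LGND2 and 27.2 ± 3.90 CPM in normal diet livers, was called against normal diet only (log2 fold change -0.98, SE 0.25, adjusted p = 0.0434). Each of these calls was lost in some of the 9 runs with a library left out. Against high fat vehicle they held in 6 runs for Spi1, 4 for Rfxap and 2 for Nfyc. Against normal diet they held in 6 for Spi1 and 1 for Nfyb. Without high fat vehicle replicate 2 the adjusted p was 0.0720 for Spi1, 0.153 for Rfxap and 0.187 for Nfyc against high fat vehicle. Without B-LGND2 replicate 1 it was 0.0908 for Spi1 and 0.137 for Nfyb against normal diet.

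Ifng, the gene of interferon gamma itself, had 3 counts, all in 1 library. Of 9 co-stimulation genes 3 were tested, and 1 was called higher with B-LGND2 against high fat vehicle, where 3.07% of all genes tested were. That was Icam1, the adhesion molecule that holds T cells to presenting cells (30.6 ± 4.96 CPM in B-LGND2 and 12.7 ± 3.81 CPM in high fat vehicle livers, a log2 difference of 1.27, SE 0.26, adjusted p = 0.0143). Without high fat vehicle replicate 2 the adjusted p of Icam1 was 0.0984.

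Genes with a pattern like the class II genes were sought over the 9 libraries, by Pearson correlation of log2 CPM with the mean log2 CPM of H2-Aa, H2-Ab1, H2-Eb1 and Cd74 among 10363 protein coding genes. The points share diet, treatment and library depth. The 8 most alike were Mageh1 (r = 0.964), Prkx (0.927), Fmod (0.908), Adgre5 (0.902), Mrc1 (0.900), Pqlc2 (0.892), Oasl2 (0.887) and Bik (0.884). Adgre5 encodes the leukocyte receptor CD97 and Mrc1 the mannose receptor of macrophages and sinusoidal endothelium. Mrc1 alone of the 8 was called against high fat vehicle (log2 fold change 1.21, adjusted p = 0.0368), with means of 39.8 CPM in B-LGND2, 17.1 CPM in high fat vehicle and 24.0 CPM in normal diet livers. Its adjusted p was 0.166 without high fat vehicle replicate 2, and the call held in 4 of the 9 runs with a library left out. Of the other members, Ctss had r = 0.830, H2-DMb1 0.700 and H2-DMa 0.544, so that H2-DMa tracked the chains least of the 7 tested.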

How the data were processed

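Per the labels' protocols, poly(A) RNA of each liver was made into amplified Ion Torrent libraries and read on a Proton instrument. The submitters' processing notes name build GRCm38.p3 and, with no roles, HTSeq 0.6.1p1, DESeq2 1.6.3, TopHat2 2.0.13, SAMtools 0.1.19 and Bowtie2 2.2.4; the strand setting and annotation were not given in the sources used here. Raw read counts per Ensembl gene were deposited by the authors, without normalization, for 9 libraries. Symbols, positions and lengths came from GENCODE M21 by gene ID (44671 of 45513 matched).

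Counts were analysed in R 4.3.3 with edgeR 4.0.16: filterByExpr (minimum count 10, at least 99.7% of counts kept), TMM scaling and 1 robust quasi-likelihood fit of 3 groups (6 residual degrees of freedom), with 3 two-sided contrasts and Benjamini-Hochberg adjustment over 12102 genes at 0.05. The SE is the fold change over the square root of its F. The model was checked on simulated counts with seeded changes for B-LGND2 against high fat vehicle (11923 genes): 31% of genes changed by 1 and 95% of those changed by 2 on the log2 scale were recovered. Changes were seeded only in genes above a minimum expected count, which H2-DMb1 did not reach, so these shares do not cover it. Correlations used log2 CPM with a prior count of 2 and genes averaging a log2 CPM of 1 or more. Alternatives were other scalings, filters and dispersions, the replicate number as a block, rRNA share as a covariate, a length and GC correction, 2 groups only, DESeq2 1.42.0, limma 3.58.1 (voom) and each library left out.

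The members and the 12 companion lists were chosen with earlier results of these data known. Named were all members, from each list the called genes with the smallest p (at most 4 per contrast, some given as counts) and the defining cell markers, and the 8 genes of most like pattern. H2-Ea-ps, H2-Eb2, H2-Oa, H2-Ob, Ifng, Nfya, Igkc, Ighm and Clec9a were named after their values were seen. Some list genes are not reported here. Reads carry no molecular identifiers, and floors cover counting error only.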

Additional observations from a re-analysis of the deposited data

How the results depend on the processing

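The fold changes of the 7 tested members for B-LGND2 against high fat vehicle stayed above 0 under every alternative run, and which members were called did not. The main count of 2 was 0 without scaling beyond library size, with at least 50 counts in 3 libraries (H2-DMa and H2-DMb1 then could not be fitted), without robust dispersions, with rRNA share as a covariate and with the length and GC correction, 1 with limma-voom, 4 with DESeq2, 5 without a filter and 0 to 4 with a library left out. Unfiltered, 1 member was called for diet and 2 for B-LGND2 against normal diet; the cause was not tested. Genes called numbered 362 for diet, 681 for B-LGND2 against high fat vehicle and 354 for B-LGND2 against normal diet. In that order they were 1182, 1345 and 751 without a filter, 1, 2 and 12 with the rRNA covariate, 153, 1420 and 144 with 2 groups only and 984, 1123 and 660 with DESeq2. With a library left out they ran from 35 to 1860, 103 to 1424 and 109 to 640. With the replicate block 203 genes were called for diet and, of the members, Cd74 and H2-Eb1 for B-LGND2 against high fat vehicle; same-numbered replicates did not deviate together (correlations of -0.193 to 0.124, the own number best in 7 of 18), so the numbers were not used as pairs. Without scaling the median of all genes moved to 0.17 for diet and -0.18 for B-LGND2 against high fat vehicle, and calls split into 260 higher and 98 lower (182 and 180 with scaling) and 211 higher and 468 lower (371 and 310). For diet the log2 fold change changed sign for H2-DMa (-0.22, rRNA covariate), Ctss (0.026 without scaling, 0.19 with the length and GC correction, -0.30 to 0.022 with a library left out) and H2-DMb1 (-0.67 to 0.046 with a library left out). For B-LGND2 against normal diet it did so for H2-Aa (-0.0041 without a filter, -0.0058 with the replicate block, -0.060 with limma-voom, -0.67 to 0.46 with a library left out) and H2-Ab1 (-0.13 to 0.76 with a library left out, lowest without B-LGND2 replicate 3). With the rRNA covariate Rfxap was at -0.13 and Apoa1 at -0.33 against high fat vehicle. Promoters with the box arrangement numbered 2 members, and 4 with at most 1 letter off. Low counts limit H2-DMb1, Ciita and H2-DMb2 most.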
